A study of Homo sapiens with 18 samples.

Results

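The clustered protocadherins are neuronal cell-surface adhesion proteins encoded by tandem arrays of genes on human chromosome 5. All 53 protein-coding genes of chromosome 5 whose symbols begin with PCDHA, PCDHB or PCDHG were taken, among 19974 protein-coding genes in all. They comprise 15 alpha, 16 beta and 22 gamma genes and extend over chr5:140786140-141512975 (hg38). The chromatin immunoprecipitation and sequencing (ChIP-seq) study mapped TLE3, a Groucho family corepressor that reaches DNA through partner factors, and the forkhead protein FOXA1, which opens chromatin in luminal breast cells. It used cultures of 3 established human breast cancer lines, the ERBB2-amplified line SKBR3, the estrogen receptor negative line MDA-MB-453 and the estrogen receptor positive line T47D. With 2 replicates for each factor in a line, there were 6 TLE3 and 6 FOXA1 libraries with a peak list each, and 6 input samples were not analysed here. Per the labels' protocols, TLE3 cells received an additional crosslinker before formaldehyde, so the factor, its antibody and that crosslinker cannot be told apart. The labels call the replicates biological without saying how they were grown, so p-values measure the spread between these libraries.

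Each alpha and gamma protein is known to begin with a variable first exon that has its own promoter and is spliced to constant exons at the far end of its subcluster, while beta genes are single units. Most of these promoters carry a conserved sequence element with a CGCT core, at which CTCF and cohesin are known to bind and to loop the chosen promoter to enhancers downstream of the arrays. PCDHAC1, PCDHAC2, PCDHGC3, PCDHGC4 and PCDHGC5 are the C-type genes, which are distinct in sequence from the other alpha and gamma genes and are used more uniformly among neurons. Peak lists hold no expression of the genes.

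One list stood apart. The library labelled SKBR3 TLE3 replicate 2 was set beside the other 11 libraries throughout, a choice made with earlier results of these data known. Of its 94363 peaks, 7.54% overlapped the list of SKBR3 TLE3 replicate 1, a share limited by the 21149 peaks of that shorter list. From the other side, 33.9% of the replicate 1 list overlapped the replicate 2 list, against 17.0% to 29.2% of each list of another line or factor. Whether the label and antibody of the library labelled SKBR3 TLE3 replicate 2 are as recorded was not tested. TLE3 means are therefore given with and without that library. The lists held 21149 to 188029 peaks, with no read counts, so sequencing depth is unknown and list length can move with it. Scores are the authors' own value per peak and were used only to rank peaks within a list, as percentiles where 100 is the highest.

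Promoter sequence from RefSeq (GRCh38.p14) was matched for 47 of the 53 members, and 10 stretches of 45 bases are shown because they hold the letters that recur before member starts. The chosen members are those with high-scored peaks in the library labelled SKBR3 TLE3 replicate 2 or peaks in many FOXA1 libraries, together with PCDHA10, which had no start peak in that library. All lie on the plus strand and read 5′ to 3′. Capitals mark the 9-letter word holding CGCT that was found in more promoters of its subcluster than any other such word. Only promoters with that word are shown. PCDHGA2, PCDHA11, PCDHGA6 and PCDHGB2 also had high-scored peaks or peaks in many FOXA1 libraries, but their promoters lack the word.
PCDHA4, chr5:140806972-140807016: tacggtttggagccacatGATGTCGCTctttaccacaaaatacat
PCDHA8, chr5:140841123-140841167: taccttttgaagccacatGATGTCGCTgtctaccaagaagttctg
PCDHA10, chr5:140855834-140855878: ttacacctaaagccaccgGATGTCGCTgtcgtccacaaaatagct
PCDHB9, chr5:141187067-141187111: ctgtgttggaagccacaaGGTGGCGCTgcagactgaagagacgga
PCDHB10, chr5:141192292-141192336: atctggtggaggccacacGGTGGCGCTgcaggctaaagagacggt
PCDHB13, chr5:141213858-141213902: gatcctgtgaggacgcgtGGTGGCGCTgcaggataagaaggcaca
PCDHGB4, chr5:141387611-141387655: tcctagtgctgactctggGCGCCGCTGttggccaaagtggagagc
PCDHGB6, chr5:141407918-141407962: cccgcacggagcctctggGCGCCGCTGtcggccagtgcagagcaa
PCDHGA10, chr5:141412925-141412969: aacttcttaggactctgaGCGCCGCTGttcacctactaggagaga
PCDHGA11, chr5:141420966-141421010: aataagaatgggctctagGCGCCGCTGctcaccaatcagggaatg

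Clustered protocadherin genes had a peak at nearly every start in the library labelled SKBR3 TLE3 replicate 2 and at few starts in the other TLE3 libraries. A gene was counted when the centre of a peak lay within 1 kb of either of its ends. In the library labelled SKBR3 TLE3 replicate 2, 49 of 53 members (92.5%) were counted, against 57.0% of all protein-coding genes. In SKBR3 TLE3 replicate 1, the other TLE3 library of that line, 0 members were counted, against 6.11% of all protein-coding genes. The MDA-MB-453 TLE3 libraries counted 2 members in replicate 1, where 11.6% of all genes were counted, and 0 in replicate 2, where 4.50% were. The T47D TLE3 libraries counted 2 members in replicate 1 (20.3% of all genes) and 7 in replicate 2 (45.8% of all genes).

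FOXA1 libraries lay between these extremes. MDA-MB-453 FOXA1 counted 18 members in replicate 1 and 12 in replicate 2, where 54.9% and 45.1% of all protein-coding genes were counted. SKBR3 FOXA1 counted 6 and 9 members, where 29.1% and 31.3% of all genes were counted. T47D FOXA1 counted 24 and 21 members, where 49.8% and 42.8% of all genes were counted. The members' share therefore exceeded that of all genes in the library labelled SKBR3 TLE3 replicate 2 and lay below it in each of the other 11 libraries. In T47D FOXA1 45.3% and 39.6% of members were counted.

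**Figure D1:**
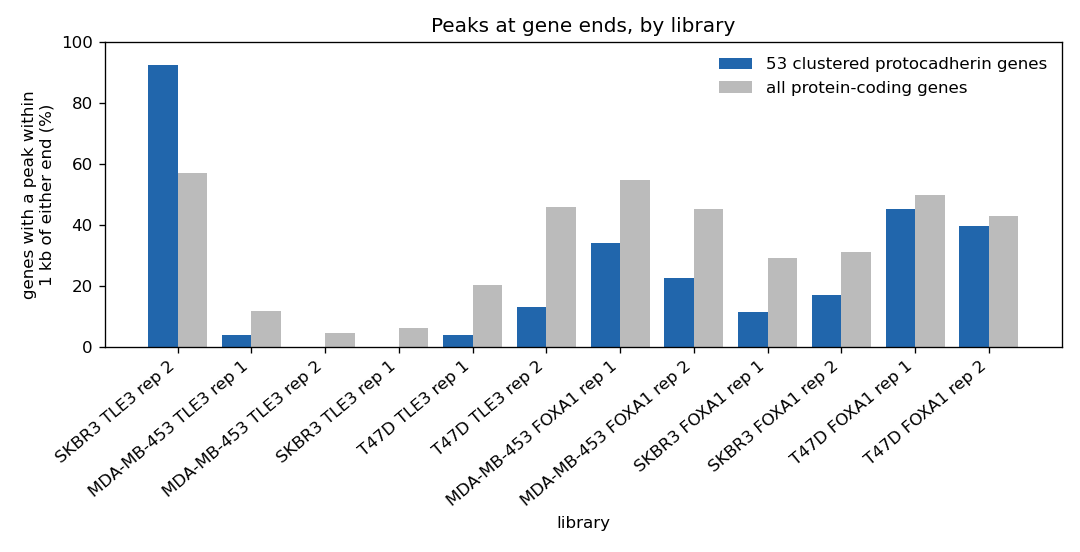
Percent of genes with a peak centre within 1 kb of either end (y axis) in each of the 12 libraries (x axis), for the 53 clustered protocadherin genes (blue bars) and for all 19974 protein-coding genes (grey bars). The blue bar reaches 92.5% beside a grey bar of 57.0% in the library labelled SKBR3 TLE3 replicate 2, and is the shorter of the pair in each of the other 11 libraries.

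Over the 6 libraries of each factor, TLE3 averaged 10 ± 19.3 members and FOXA1 15.0 ± 7.10 members (SD, n = 6 each). The difference of -5 members did not pass the exact two-sided permutation test of factor labels within lines (p = 0.713, 216 arrangements). Without the library labelled SKBR3 TLE3 replicate 2, TLE3 averaged 2.20 ± 2.86 members (SD, n = 5) and the difference was -12.8 members (exact permutation p = 0.0278, 108 arrangements). That library was set apart with earlier results of these data known, so p-values without it are descriptions without an error rate. The 5 remaining TLE3 libraries ranged from 0 to 7 members with a median of 2, and the 6 FOXA1 libraries from 6 to 24 with a median of 15. The groups overlap by the T47D TLE3 replicate 2 value of 7, which lies above the SKBR3 FOXA1 replicate 1 value of 6. FOXA1 lists were also longer, and with every list cut to its 21149 highest scored peaks the difference without that library was -1.07 members (exact permutation p = 0.194).

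Far ends are shared. All alpha genes end at chr5:141012347 and all gamma genes at chr5:141512975, so the 53 members have 53 distinct starts but 18 distinct far ends. The library labelled SKBR3 TLE3 replicate 2 had a peak at the gamma far end, chr5:141511526-141513464, with a score of 439, the highest of its region. That peak counts for all 22 gamma genes at once, so starts were also counted alone.

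By starts alone, the library labelled SKBR3 TLE3 replicate 2 had a peak at 47 of 53 members, where 56.9% of protein-coding genes in the promoter table had one. They comprised 12 of 15 alpha, 15 of 16 beta and 20 of 22 gamma genes. The other 5 TLE3 libraries had start peaks at 0 members in SKBR3 replicate 1 and MDA-MB-453 replicate 2, 1 in MDA-MB-453 replicate 1 and T47D replicate 1, and 6 in T47D replicate 2. The share of all genes with a start peak in these libraries was 5.27% in SKBR3 replicate 1, 3.98% in MDA-MB-453 replicate 2, 11% in MDA-MB-453 replicate 1, 20.9% in T47D replicate 1 and 47.7% in T47D replicate 2. FOXA1 start peaks numbered 16 and 11 in MDA-MB-453 replicates 1 and 2 (55.9% and 45.7% of all genes), 5 and 8 in SKBR3 (27.3% and 29.4% of all genes), and 23 and 20 in T47D (50.5% and 41.9% of all genes). Start counts differed between the factors by -4.67 members (exact permutation p = 0.731), and by -12.2 members over the 11 libraries that leave out SKBR3 TLE3 replicate 2 (exact permutation p = 0.0278). The latter p-value also has no error rate, as that library was set apart with earlier results known. FOXA1 lists were longer, and starts alone were not compared between the factors in equally long lists.

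**Figure D2:**
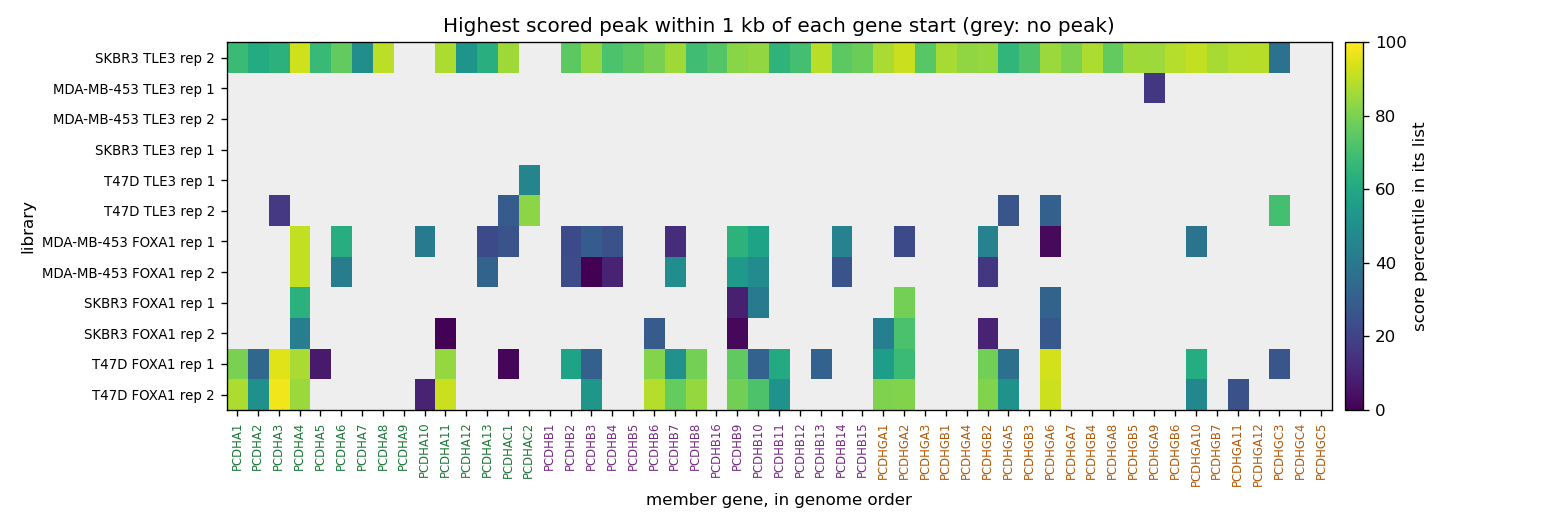
Score percentile within its own list (colour) of the highest scored peak within 1 kb of each member's start, for 12 libraries (rows) and 53 genes in genome order (columns; green alpha, purple beta and orange gamma names), with grey for no peak. The top row, the library labelled SKBR3 TLE3 replicate 2, is filled at 47 genes, while the T47D FOXA1 rows are filled at 23 and 20 and 2 TLE3 rows are empty.

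Ranked by score in the library labelled SKBR3 TLE3 replicate 2, the 10 highest start peaks belonged to 3 alpha, 1 beta and 6 gamma genes. PCDHA4 had a score of 369, at the 92.8th percentile of that list, and PCDHGA2 a score of 363. PCDHGA10 had 351, PCDHA8 347, PCDHB13 341 and PCDHGA12 340. PCDHGA11 had 335, PCDHGB6 334, PCDHGB4 328 and PCDHA11 327. These genes encode variable ectodomains of the alpha, beta and gamma types, and none of them is a C-type gene. Taking the highest scored peak at each of the 47 starts, the score ranged from 18.7 to 369 with a median of 257, and 45 of the 47 lay above the 50th percentile of the list. That list also holds peaks away from gene starts, and start peaks of all genes were not ranked for comparison. The median score was 127 for alpha, 201 for beta and 308 for gamma genes, so gamma starts held the higher ranked peaks in this one library.

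In the library labelled SKBR3 TLE3 replicate 2, start peaks were centred close to the annotated start, at a median of 47 bp after it (range -278 to 597 bp). Of the 47, 41 were centred within 300 bp. All 12 alpha peaks were centred after the start, at a median of 305.5 bp (108 to 597 bp), whereas beta peaks had a median of -29 bp and gamma peaks of 33 bp. The peaks were wide, with a median of 1330 bp against 629 bp over the whole list, which includes peaks away from gene starts. Place and width were not taken over the start peaks of all genes, so neither is shown to be particular to the members. FOXA1 start peaks had a median centre of 342 bp at alpha genes (24 gene and library pairs), -115.5 bp at beta genes (34 pairs) and -61 bp at gamma genes (25 pairs). Pairs at one gene share that gene and are not replicates.

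**Figure D3:**
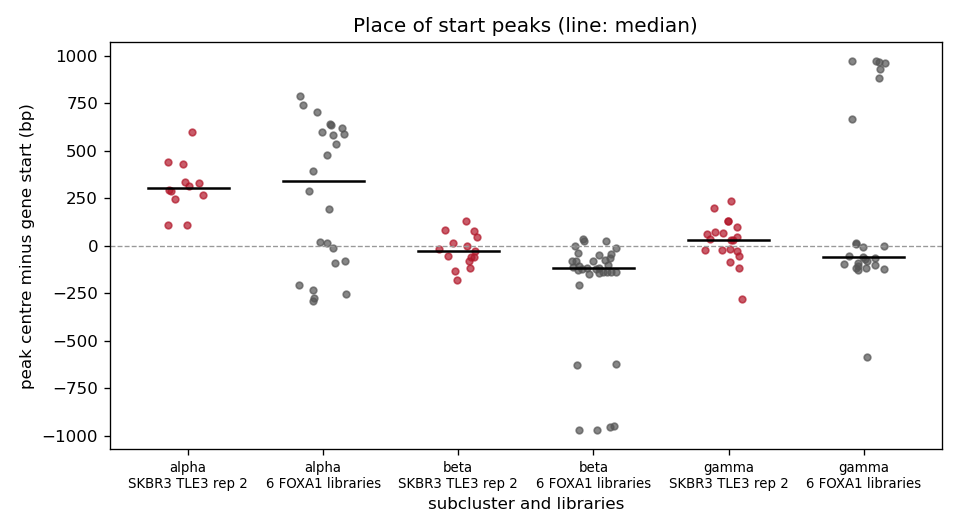
Distance in bp from the annotated gene start to the centre of the highest scored peak within 1 kb (y axis), by subcluster, for the library labelled SKBR3 TLE3 replicate 2 (red) and for the 6 FOXA1 libraries together (grey, 1 point per gene and library); black lines are medians. Red points lie between -278 and 597 bp, with alpha points all above 0, and grey points reach out to both ends of the 1 kb window.

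The 6 members with no start peak in the library labelled SKBR3 TLE3 replicate 2 were PCDHA9, PCDHA10, PCDHAC2, PCDHB1, PCDHGC4 and PCDHGC5. PCDHGC4 and PCDHGC5 were counted at an end only through the shared gamma far end, and the other 4 had no peak at either end. PCDHAC2, PCDHB1, PCDHGC4 and PCDHGC5 are the genes known to lack the conserved sequence element in their promoters. The letters CGCT nevertheless occurred in the matched promoters of PCDHAC2, PCDHB1 and PCDHGC4. Whether the element bears on the missing peaks was not tested. PCDHA9 and PCDHA10 are neighbours, and no peak of that list was centred in the 25885 bp between the start peaks of PCDHA8 and PCDHA11. In that stretch 2 libraries had 1 peak each, MDA-MB-453 FOXA1 replicate 1 and T47D FOXA1 replicate 2, centred 537 and 788 bp after the PCDHA10 start. PCDHA9, PCDHB1, PCDHGC4 and PCDHGC5 had no start peak in any of the 12 libraries. In contrast, 18 members, among them PCDHA8, PCDHGB4, PCDHGB6 and PCDHGA12, had a start peak in the library labelled SKBR3 TLE3 replicate 2 and in no other, which was so for 6.41% of all protein-coding genes.

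The C-type genes differed among themselves. PCDHAC1 had a start peak with a score of 309 in the library labelled SKBR3 TLE3 replicate 2, and also in T47D TLE3 replicate 2, MDA-MB-453 FOXA1 replicate 1 and T47D FOXA1 replicate 1, where its score percentiles were 29.1, 25.5 and 1.78. PCDHAC2 had none in the library labelled SKBR3 TLE3 replicate 2 or in any FOXA1 library, but one in each T47D TLE3 library, at the 45.4th percentile in replicate 1 and the 82.5th in replicate 2. PCDHAC2 was the one member with a start peak in 2 of the other 5 TLE3 libraries. PCDHGC3 had the weakest start peak of the 47 in the library labelled SKBR3 TLE3 replicate 2, with a score of 18.7 at the 37.6th percentile. PCDHGC3 also had one in T47D TLE3 replicate 2 at the 70.3rd percentile and in T47D FOXA1 replicate 1 at the 26.5th.

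The first and last genes of the subclusters followed no single order in the library labelled SKBR3 TLE3 replicate 2. PCDHA1, the first alpha gene, had a score of 132, and PCDHAC2, the last, had no peak. PCDHB1, the first beta gene, had no peak, while PCDHB15, the last, had a score of 230. PCDHGA1, the first gamma gene, had a score of 322, and PCDHGC5, the last, had no start peak.

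CGCT occurred on either strand in 46 of the 47 matched promoters (97.9%), against 70.0% of the 35116 promoters in the table, each of 300 bases from 250 before to 50 after the start. PCDHA9 was the member whose window lacked it. The word GATGTCGCT occurred in 9 of 13 alpha promoters and 0.105% of all promoters, GGTGGCGCT in 13 of 14 beta promoters and 0.501% of all, and GCGCCGCTG in 10 of 20 gamma promoters and 1.28% of all. Members were searched on the plus strand and all promoters on either, and the words were picked from these promoters after seeing the data. Every beta promoter with a peak in the library labelled SKBR3 TLE3 replicate 2 held its word (13 of 13), and PCDHB1, with no peak, did not. Among alpha genes the word was in 8 of 10 promoters with a peak and in 1 of 3 without, the one shown above for PCDHA10. Among gamma genes it was in 10 of 19 with a peak, and not in that of PCDHGC4, the 1 matched gamma gene without. Only 5 of the 47 matched promoters had no peak, and each word was picked as frequent in these same promoters. Whether word and peak go together was therefore not tested.

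Further short words were searched in the same windows. AGGNGGC, a short word of the CTCF motif, occurred in 4 of 47 member promoters (8.51%) and 35.9% of all promoters. The beta word GGTGGCGCT matches AGGNGGC only where the letter before it is A, as at PCDHB9 but not at PCDHB10 or PCDHB13. The count of AGGNGGC is therefore no measure of how many member promoters hold a CTCF site. TGTTTNC, a forkhead core, occurred in 12 of 47 (25.5%) and 18.0% of all promoters. It was in 10 of the 42 matched promoters with a peak in the library labelled SKBR3 TLE3 replicate 2 and in 2 of the 5 without. These matches describe letters in a window and do not mark bound sites.

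Peaks over the cluster with 50 kb on each side, a region of 826.8 kb, numbered 71 in the library labelled SKBR3 TLE3 replicate 2. That was 7.52 per 10000 peaks of its list (95% exact Clopper-Pearson interval 5.88 to 9.49, which covers counting error only). The other TLE3 libraries had 2 peaks in SKBR3 replicate 1, 3 and 1 in MDA-MB-453 replicates 1 and 2, and 6 and 20 in T47D. FOXA1 libraries had 40 and 32 peaks in MDA-MB-453, 10 and 15 in SKBR3, and 57 and 59 in T47D. The highest share outside the library labelled SKBR3 TLE3 replicate 2 was 3.96 per 10000, in T47D FOXA1 replicate 2 (3.01 to 5.11).

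The share of list peaks over the region averaged 2.48 ± 2.68 per 10000 in TLE3 libraries and 2.38 ± 1.28 in FOXA1 libraries (SD, n = 6 each). The difference of mean log2 shares was -0.42, and the exact permutation test within lines gave p = 0.602. The other 5 TLE3 libraries had a share of 1.47 ± 1.16 per 10000 (SD, n = 5), and over those 5 and the FOXA1 libraries there was a log2 difference of -0.87 (exact permutation p = 0.102). With 200 kb on each side in place of 50 kb, the log2 difference without that library was -1.40 (exact permutation p = 0.00926, the smallest that 108 arrangements can give). With no flank it was -0.77 (exact permutation p = 0.111). The flanks were among several alternatives run, and that library was set apart with earlier results known, so these p-values carry no error rate.

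Set against chromosome 5 itself, the region was dense in one library. Among 219 other windows of that length on chromosome 5, the library labelled SKBR3 TLE3 replicate 2 had a median of 19 peaks and at most 88, and 1 window held more than the region's 71. The windows were not matched for gene starts, and 48 of the 71 peaks lay within 1 kb of a member start. In MDA-MB-453 TLE3, 208 and 204 of the 219 windows held more peaks than the region. In T47D FOXA1 75 and 77 windows did, in MDA-MB-453 FOXA1 184 in each replicate, and in SKBR3 FOXA1 183 and 163. In SKBR3 TLE3 replicate 1, 139 windows held more, and in T47D TLE3 137 and 79 did.

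**Figure D4:**
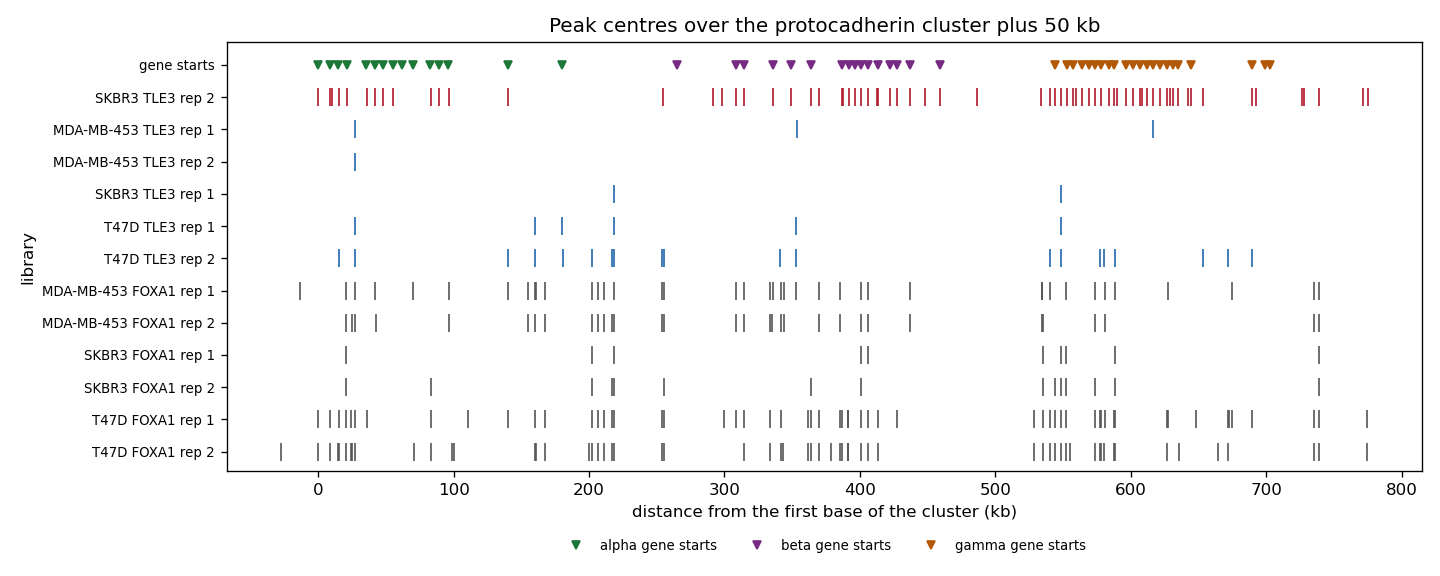
Centres of peaks (ticks) along the protocadherin cluster with 50 kb on each side, by distance in kb from the first base of the cluster (x axis), for 12 libraries (rows; red the library labelled SKBR3 TLE3 replicate 2, blue the other TLE3 libraries, grey FOXA1), below the starts of the alpha, beta and gamma genes (triangles). Of the 71 red ticks, 48 lie within 1 kb of a gene start, and the other TLE3 rows hold 1 to 20 ticks.

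Of the 71 peaks, 48 were centred within 1 kb of a member start, with a pair at PCDHB11, and 1 at a member far end. Another 9 lay near the end of a gene that is no member, and 13 lay elsewhere. Among the 9 were peaks near the pseudogenes PCDHB17P (score 114) and PCDHB18P (score 141) and one near TAF7, a transcription initiation factor gene inside the cluster (score 346). Peaks away from starts included some of the highest scores of the region. One of score 370 lay at chr5:141039731-141042090, between the alpha far end and PCDHB1. Others were at chr5:141325582-141327327 (score 394), centred at -4060 bp from the PCDHGA1 start, at chr5:141477470-141479222 (score 394), 2380 bp after the PCDHGC3 start, and at chr5:141524101-141525832 (score 394) inside DIAPH1, an actin-nucleating formin gene downstream of the gamma array. A further peak inside DIAPH1, at chr5:141556526-141558896, had a score of 402, below only the peak at the gamma far end. The median score over the 71 peaks was at the 76.1th percentile of the list, compared with 10.4 to 90.8 over the medians of the other 11 lists in the region. The 10.4 rests on 2 peaks, in SKBR3 TLE3 replicate 1, and the 90.8 on 1 peak, in MDA-MB-453 TLE3 replicate 2. The highest median among the remaining lists was 57.9, in T47D FOXA1 replicate 1.

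Of these 71 peaks, 37 (52.1%) were overlapped by at least 1 of the other 11 lists and 34 by none. SKBR3 TLE3 replicate 1 overlapped 1 of the 71 (1.41%), against 7.54% of the whole list. Any of the other 5 TLE3 lists overlapped 10 (14.1%). T47D FOXA1 replicates 1 and 2 overlapped 30 and 25 of the 71 (42.3% and 35.2%), against 28.4% and 25.8% of the whole list. MDA-MB-453 FOXA1 overlapped 19 and 14 (26.8% and 19.7%, against 37.4% and 30.3%), and SKBR3 FOXA1, of the labelled line, 7 and 11 (9.86% and 15.5%, against 23.6% and 24.8%). From the other side, the library labelled SKBR3 TLE3 replicate 2 overlapped 7 of 10 and 11 of 15 SKBR3 FOXA1 peaks of the region, against 21.0% and 20.5% of those whole lists. It overlapped 52.5% and 46.9% of the MDA-MB-453 FOXA1 peaks of the region (20.0% and 19.7% of the lists) and 59.6% and 47.5% of the T47D FOXA1 peaks (19.1% and 17.0% of the lists). Of the region's TLE3 peaks it overlapped 1 of 2 in SKBR3 replicate 1, 1 of 3 and 0 of 1 in MDA-MB-453, and 1 of 6 and 10 of 20 in T47D.

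FOXA1 start peaks were found at 29 members in at least 1 library, where 63.6% of all protein-coding genes had one. Within its own list, the median start peak of the members lay at the 61.1th and 79.8th percentiles in T47D, the 33.8th and 31.6th in MDA-MB-453, and the 41.7th and 28.1th in SKBR3. Both replicates had one at 18 members in T47D (39.6% of all genes), 11 in MDA-MB-453 (44.8%) and 4 in SKBR3 (23.4%). Start peaks in both T47D replicates and no FOXA1 library of another line were found at 6 members (1.69% of all genes), those in both MDA-MB-453 replicates alone at 4 (3.23%), and those in both SKBR3 replicates alone at 0 (0.632%).

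PCDHA4 and PCDHB9 were the 2 members with a start peak in all 6 FOXA1 libraries, where 19.5% of all genes had one in each. At PCDHA4 the score percentiles were 90.8 and 90.7 in MDA-MB-453, 63.9 and 42.6 in SKBR3, and 87.1 and 85.0 in T47D. Its 6 FOXA1 peaks were centred -288 to -10 bp from the start, while the peak of the library labelled SKBR3 TLE3 replicate 2 was centred 597 bp after it. At PCDHB9 the percentiles were 64.8 and 53.9 in MDA-MB-453, 8.68 and 2.02 in SKBR3, and 75.5 and 78.8 in T47D, so the SKBR3 peaks ranked near the bottom of their lists. PCDHB16 was also counted in 6 other libraries, but through its far end alone, which lies 935 bp before the PCDHB9 start.

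PCDHB10, PCDHGA2, PCDHGB2 and PCDHGA6 each had a start peak in 5 FOXA1 libraries. PCDHGA2 held the highest scored FOXA1 peak of the region in SKBR3 replicate 1, at the 79.0th percentile, and had percentiles of 71.4 in SKBR3 replicate 2, 68.0 and 80.9 in T47D, and 22.6 in MDA-MB-453 replicate 1. PCDHGA6 had percentiles, each within its own list, of 93.2 and 92.4 in T47D, 32.0 and 27.4 in SKBR3, and 2.36 in MDA-MB-453 replicate 1. Its highest scored FOXA1 peak in each library was centred 883 to 972 bp after the start, whereas the peak of the library labelled SKBR3 TLE3 replicate 2 was centred at 98 bp. PCDHA3 and PCDHA1 had FOXA1 start peaks in T47D and no other line, PCDHA3 at the 95.3rd and 97.8th percentiles and PCDHA1 at the 79.9th and 87.5th. PCDHA3 is outside the naming rule and was picked after its values were seen.

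In MDA-MB-453 and T47D, the site of the cluster that ranked highest for both factors lay at no gene start. At chr5:140812915-140813817, 6298 bp after the PCDHA4 start and within the annotated extent of 4 alpha genes, 8 libraries had a peak, 4 of TLE3 and 4 of FOXA1. These were all the libraries of MDA-MB-453 and T47D, and in each of them that peak had the highest score of the region. The TLE3 percentiles were 93.8 and 90.8 in MDA-MB-453 and 82.5 and 89.1 in T47D, and the FOXA1 percentiles 99.1 and 99.1 in MDA-MB-453 and 97.5 and 98.0 in T47D. None of the 4 SKBR3 libraries, the library labelled SKBR3 TLE3 replicate 2 included, had a peak there. For MDA-MB-453 TLE3 replicate 2 it was the 1 peak of the region.

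Peaks of the 12 lists merged into 109 sites over the region, of which 47 were in a single library. At chr5:141004007-141004880, 37967 bp after the PCDHAC2 start and inside all 15 alpha genes, 9 libraries had a peak, 6 of FOXA1 and 3 of TLE3, the most of any site, and the library labelled SKBR3 TLE3 replicate 2 had none. Of the 6 sites present in all 6 FOXA1 libraries, 2 were centred at a member start, those of PCDHA4 and PCDHB9. At least 1 of the other 5 TLE3 libraries had a peak at 20 sites, of which 17 also had a FOXA1 peak and 3 did not. The PCDHAC2 start was one of these 3.

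Other genes gave a frame for these counts. Of 12 protocadherin genes outside the arrays, 2 had an end peak in the library labelled SKBR3 TLE3 replicate 2, PCDH1 and PCDH20, where 57.0% of all genes had one, compared with 1 or 2 in the other TLE3 libraries and 3 to 5 in FOXA1 libraries. PCDH20 was counted in 10 libraries, PCDH1 in 9 and PCDH17 in 6. A list of 13 genes for CTCF, cohesin and related factors, CTCFL and SMCHD1 included, was counted as well. All 13 had an end peak in the library labelled SKBR3 TLE3 replicate 2 (57.0% of all genes). The other TLE3 libraries had 1 to 10 (4.50% to 45.8% of all genes) and FOXA1 libraries 5 to 12 (29.1% to 54.9% of all genes). CTCF, SMC3, RAD21, STAG2 and NIPBL were each counted in 8 libraries. Among the 3 other protein-coding genes of the region, TAF7 and DIAPH1 had an end peak in the library labelled SKBR3 TLE3 replicate 2 and in all 6 FOXA1 libraries, and SLC25A2, a mitochondrial carrier gene, had none in any library.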

How the data were processed

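Per the submitters' processing notes, the build was hg38 and the tools MACS2, SAMtools, BWA (0.7.5a) and Trim Galore; how peaks were called, with which control and filters, is not given in the sources used here. The authors deposited 1 list per library, not pooled, with 5 columns, the last an unnamed peak score of at least 2.00. Intervals were converted to positions counted from 1. Of 1134209 peaks, 15 outside chromosomes 1 to 22 and X were left out. Gene positions and promoters came from RefSeq tables of GRCh38.p14. Starts over all genes used the 15812 protein-coding genes of the promoter table. Overlap means at least 1 bp.

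Named are the members with the 10 highest scored start peaks in the library labelled SKBR3 TLE3 replicate 2, those counted in the most other libraries, the C-type, first and last members, and those without a peak there. Members, lists and tests were chosen with earlier results of these data known. Whether a shared replicate number pairs samples is unknown. Factor labels were permuted exactly within lines (two-sided, threshold 0.05). Alternatives were lists cut to their 21149 highest scored peaks or to the upper 50%, other windows and flanks, starts alone, unshared ends, each library left out and a replicate block. Scripts (Python 3.11.15, pandas 2.3.3, SciPy 1.17.1) were tested on simulated data.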

Additional observations from a re-analysis of the deposited data

Results flagged for a closer look

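Among the 6 TLE3 libraries, the library labelled SKBR3 TLE3 replicate 2 lay farther from the others than Dixon's test allows for 6 values in 4 of 6 measures. These were 49 members with a peak at an end, 47 members with a peak at a start, 71 peaks over the region and a median peak width of 1260 bp over the region. These measures come from the same peaks. Chance flags about 1 in 20 groups where no library is picked beforehand. This library was set apart with earlier results known, so its flags are descriptions without an error rate. Among the 6 FOXA1 libraries none was set apart in the same 6 measures.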

How the results depend on the processing

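The difference in members counted, -5, turned to 1 in the upper 50% of each list by score and to 4.5 in equally long lists (exact permutation p = 1 for both), and with one library left out it ranged from -12.8, where SKBR3 TLE3 replicate 2 was left out and the test passed the threshold, to -3. SKBR3 TLE3 replicate 2 was set apart with earlier results known, so p-values without it are descriptions without an error rate. The log2 difference in share of list peaks kept its direction and did not pass the threshold in any single alternative, although it passed with 200 kb flanks and SKBR3 TLE3 replicate 2 left out together (-1.40, exact permutation p = 0.00926), and ranged from -0.87 to -0.05 with one library left out. It could not be computed in the upper 50% or in equally long lists, where 1 and 2 libraries had no peak over the region.

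In equally long lists the library labelled SKBR3 TLE3 replicate 2 counted 34 members (64.2%, against 12.2% of all protein-coding genes) and the highest of the other 11 libraries, T47D FOXA1 replicate 2, 5 (9.43%, against 8.51%), and 14.3% of its 35 region peaks were overlapped by another list. Its share of list peaks was 12.3 per 10000 in the upper 50%, 16.5 in equally long lists and 10.3 with 200 kb flanks, where the highest of the other 11 had 5.77. Without that library, the difference in members missed the threshold in the upper 50% (-6.90, exact permutation p = 0.0556).

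With a replicate block, labels exchanged within line and replicate number over 64 arrangements, the differences of -5 members and -0.42 (log2 share) had exact permutation p = 0.656 and 0.594, and no call changed. Differences between replicates 1 and 2 of the factors correlated over members at 0.242 (MDA-MB-453), 0.0536 (SKBR3) and -0.309 (T47D). TLE3 replicates differed at few members in MDA-MB-453 and T47D and at nearly all in SKBR3. These correlations therefore cannot tell whether the replicate numbers pair the samples. Depth is unknown, so an absent peak is not shown to be absent binding.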
